A study of Mus musculus with 2 samples.

Results

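The miR-29 family of the mouse is encoded by 4 microRNA genes in 2 pairs, Mir29b-1 with Mir29a on chromosome 6 and Mir29b-2 with Mir29c on chromosome 1. All 4 genes were chosen by their family name and were found by symbol among the 2202 microRNA genes of the deposited count files. MicroRNAs are cut from hairpin precursors and guide the repression of transcripts that pair with their seed, the bases near the 5′ end. In brain, miR-29 is known as a microRNA that accumulates as neurons mature, that represses pro-apoptotic BH3-only genes and that restrains the DNA methyltransferase gene Dnmt3a. In many tissues it also represses collagen and other matrix genes.

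The samples were 2 replicates of 1 group, tissue labelled layer of hippocampus from male B6CASTF1/J mice aged 10 days, F1 animals of a C57BL/6J by CAST/EiJ cross. Each replicate was labelled with 3 males, and the animal numbers differ between the labels while the donor identifier is the same. The SDs here thus measure how far these samples differ, and some of that may be technical. The p-values cover counting error only. The files hold counts of reads per hairpin gene from small RNA libraries, with 3495401 sense counts on genes in replicate 2 and 4815761 in replicate 1. There is no contrast between conditions, so the data give the level of each member, the make-up of the family and the difference between the libraries. The 16 genes on the list of neuronal markers held 10.6% of the counts of replicate 2 and 8.21% of those of replicate 1, although its 3 Mir124a genes, which encode the same mature miR-124-3p, had at most 13 counts each in a library. Mir139 alone had 57346 CPM (counts per 1000000) in replicate 2 against 31820 in replicate 1. Over the 14 list members tested, the log2 ratio of replicate 2 over replicate 1 had a median of 0.077, beside 0.17 over all tested genes, and by the test given further on Mir132 was called higher in replicate 2 and Mir153 lower.

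The mature sequences, from RefSeq on GRCm38.p6, decide which reads can be counted for which gene, and they are shown with the seed (bases 2 to 8) in capitals, 5′ to 3′.
mmu-miR-29a-3p: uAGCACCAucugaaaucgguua
mmu-miR-29c-3p: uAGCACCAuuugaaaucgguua
mmu-miR-29b-3p, from Mir29b-1 and from Mir29b-2: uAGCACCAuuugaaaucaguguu
mmu-miR-29a-5p: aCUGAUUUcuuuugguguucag
mmu-miR-29c-5p: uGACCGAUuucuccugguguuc
mmu-miR-29b-1-5p: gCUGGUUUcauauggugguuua
mmu-miR-29b-2-5p: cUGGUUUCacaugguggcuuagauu

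The 3p arms of all 4 genes carried one seed, and among 1738 mature entries of the RefSeq table no other gene had it. The 5p arms had 4 different seeds, and that of miR-29b-2-5p was shared with 1 entry outside the family, from Mir6338. Counting from the 5′ end, miR-29a-3p and miR-29c-3p differed by C10U alone over 22 bases. Between miR-29c-3p and miR-29b-3p there were 3 differences, G18A, U21G and A22U, and the first 17 bases were identical.

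The precursors show how far the sharing extends, with the 3p arm in capitals.
Mir29a: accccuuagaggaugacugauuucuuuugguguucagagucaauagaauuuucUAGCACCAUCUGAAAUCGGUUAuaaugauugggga
Mir29c: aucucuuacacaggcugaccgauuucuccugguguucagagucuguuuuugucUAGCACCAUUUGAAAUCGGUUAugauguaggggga
Mir29b-1: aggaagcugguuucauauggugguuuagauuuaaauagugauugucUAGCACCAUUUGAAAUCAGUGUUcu
Mir29b-2: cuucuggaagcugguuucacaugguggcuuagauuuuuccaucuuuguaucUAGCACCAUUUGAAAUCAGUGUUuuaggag

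The hairpins of Mir29b-1 and Mir29b-2 had a run of 25 identical bases that holds the whole 3p arm. Any read inside that run fits both genes, and reads that fitted several places form a total of their own in the files, outside the gene counts. The counts of Mir29b-1 and Mir29b-2 by that rule come from the 5p arms, other parts of the hairpin or reads that reach beyond the run, and they do not give the level of miR-29b-3p. When all 2202 hairpins were searched on both strands, the first 11 bases of miR-29a-3p were found in Mir29a alone. For miR-29c-3p, 18 bases were needed, and its first 15 were found in 3 hairpins, those of Mir29c, Mir29b-1 and Mir29b-2. Of the family, Mir29a is thus the gene whose 3p reads are told apart by the shortest stretch, and 3p reads of Mir29c under 18 bases fit several genes. Places in the genome outside the annotated hairpins were not searched.

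Mir29a (ENSMUSG00000065610.1) lies on the minus strand of chromosome 6 at 31062660-31062747, and Mir29b-1 (ENSMUSG00000065604.2) lies upstream of it on that strand at 31063023-31063093 (mm10, as for all positions). The 2 hairpins are 275 bases apart. No annotated gene contained either, although 2 bases of Mir29b-1 overlapped an exon of the long noncoding RNA gene Gm27019 on the same strand. Mir29b-2 (ENSMUSG00000065412.3) and Mir29c (ENSMUSG00000065548.1) lie on the plus strand of chromosome 1 at 195037040-195037120 and 195037547-195037634, with 426 bases between them. Both are exonic in the noncoding gene A330023F24Rik on the same strand, and both also lie within an exon of Cd46, which codes for a complement regulator, on the opposite strand. Counts on the opposite strand were 0 for all 4 genes in both libraries.

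**Figure D1:**
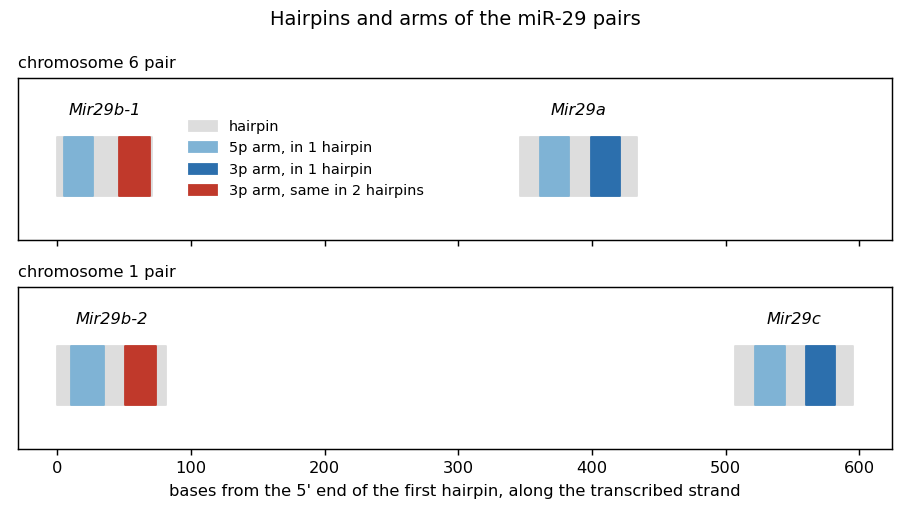
Hairpins (grey) and mature arms (colours) of the chromosome 6 pair (top) and the chromosome 1 pair (bottom), by distance in bases from the 5′ end of the first hairpin along the transcribed strand. In each pair the miR-29b hairpin comes first, and its 3p arm (red) has the same sequence in 2 hairpins, while the other arms (blue) were each found in 1.

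Mir29a was the most abundant member in both libraries, followed by Mir29c, and both Mir29b genes were far lower in uniquely assigned reads. Levels are counts per 1000000 sense counts on genes (CPM), and they were not divided by hairpin length, since libraries of small RNA count molecules rather than fragments of a longer transcript. Read lengths were not analysed here. Mir29a had 5032 counts, or 1439.6 CPM, in replicate 2 and 2634 counts, or 547 CPM, in replicate 1. Its exact Clopper-Pearson 95% intervals were 1400.1 to 1479.9 CPM in replicate 2 and 526 to 568 CPM in replicate 1, and all intervals here cover counting error only. The mean was 993 ± 631 CPM (SD, n = 2), the rank 112 of 2202 genes. Of these 2202 genes, 1405 had 0 counts in both libraries.

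Mir29c had 1084 counts, or 310.1 CPM (95% interval 292 to 329), in replicate 2 and 714 counts, or 148 CPM (138 to 160), in replicate 1. Its mean was 229 ± 114 CPM (SD, n = 2), the rank 176. Its higher library lay below the lower library of Mir29a, so the libraries of these genes did not overlap. Mir29b-2 had 108 counts, or 30.9 CPM (25.3 to 37.3), in replicate 2 and 106 counts, or 22.0 CPM (18.0 to 26.6), in replicate 1, with a mean of 26.5 ± 6.28 CPM (SD, n = 2). Mir29b-1 had 132 counts, or 37.8 CPM (31.6 to 44.8), in replicate 2 and 56 counts, or 11.6 CPM (8.78 to 15.1), in replicate 1, with a mean of 24.7 ± 18.5 CPM (SD, n = 2). The libraries of both Mir29b genes lay below those of Mir29c. Between each other the Mir29b genes overlapped, and their order changed: Mir29b-1 was higher in replicate 2 and Mir29b-2 in replicate 1.

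**Figure D2:**
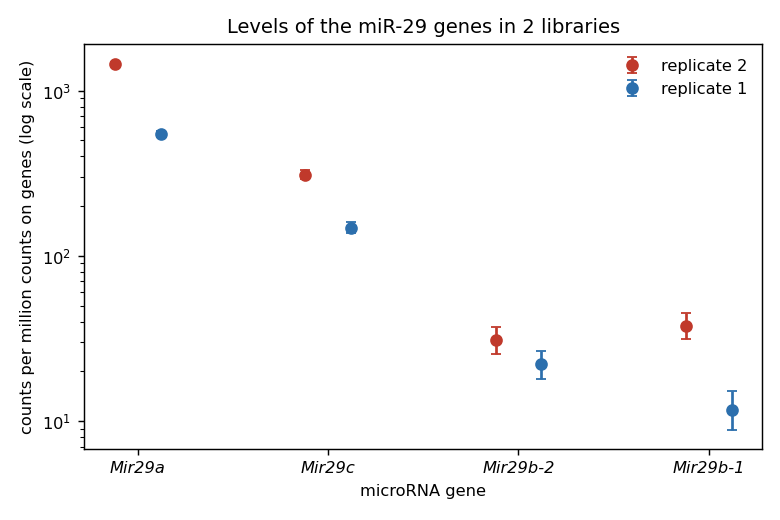
Levels of the 4 miR-29 genes (x axis) in CPM (y axis, log scale) in replicate 2 (red) and replicate 1 (blue), where bars are exact 95% intervals for counting error and are smaller than the points for Mir29a. Every gene was higher in replicate 2, and the intervals of the 2 libraries overlap for Mir29b-2 alone.

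In total the family had 6356 counts, 0.182% of counts (95% interval 0.177% to 0.186%), in replicate 2 and 3510 counts, 0.0729% (0.0705% to 0.0753%), in replicate 1. When genes were grouped by the number in their symbol, 688 such families had counts, and miR-29 ranked 74 in replicate 2 and 101 in replicate 1. These ranks leave out the miR-29b-3p reads that fit both Mir29b genes, and the effect on other families was not measured. For each counted read, replicate 2 had 1.15 reads that fitted several places and replicate 1 had 0.968.

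The make-up of the family was similar in the libraries, with most counts on Mir29a, but the shares of 3 genes moved by more than counting error. Mir29a held 79.2% of the family's counts (95% interval 78.2% to 80.2%) in replicate 2 and 75.0% (73.6% to 76.5%) in replicate 1. Mir29c held 17.1% (16.1% to 18.0%) in replicate 2 and 20.3% (19.0% to 21.7%) in replicate 1. Mir29b-1 held 2.08% (1.74% to 2.46%) in replicate 2 and 1.60% (1.21% to 2.07%) in replicate 1, with intervals that overlap. Mir29b-2 held 1.70% (1.40% to 2.05%) in replicate 2 and 3.02% (2.48% to 3.64%) in replicate 1. The chromosome 6 pair together held 81.2% (80.3% to 82.2%) in replicate 2 and 76.6% (75.2% to 78.0%) in replicate 1. The intervals of Mir29a, Mir29c and Mir29b-2 and of the pair did not overlap between the libraries, and no test of these shares was made. All these shares are of uniquely assigned reads and leave out miR-29b-3p reads that fit both Mir29b genes. They therefore do not give the share of mature miR-29b, or of either pair, in all miR-29 reads.

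**Figure D3:**
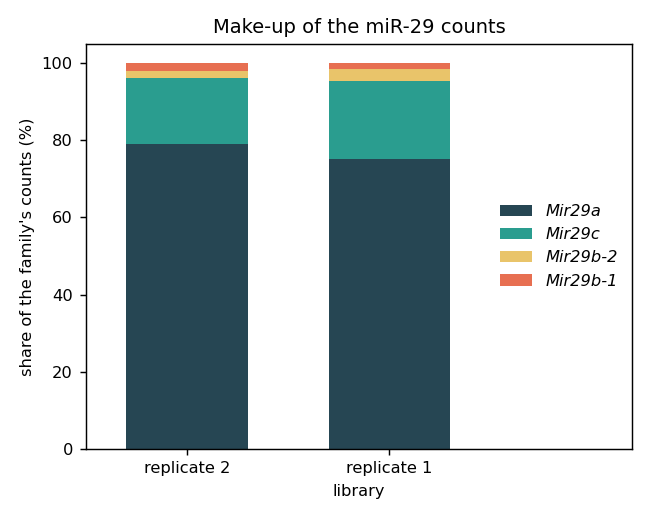
Share of the miR-29 counts (y axis, percent) held by each gene in replicate 2 (left) and replicate 1 (right). Mir29a held 79.2% in replicate 2 and 75.0% in replicate 1, and both Mir29b genes together held 3.78% in replicate 2 and 4.62% in replicate 1. Reads that fit both Mir29b genes are left out, so these are not shares of mature miR-29b.

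Within each pair, the 2 genes differed in uniquely assigned reads by factors of 6.74 to 47.0, and the intervals of the libraries overlapped in both pairs, barely so on chromosome 1. Mir29a was 38.1 times Mir29b-1 (95% interval 32.1 to 45.7) in replicate 2 and 47.0 times (36.1 to 62.4) in replicate 1, so the intervals overlapped. Mir29c was 10.0 times Mir29b-2 (8.23 to 12.3) in replicate 2 and 6.74 times (5.49 to 8.34) in replicate 1, and these intervals overlapped only between 8.23 and 8.34. Across pairs, Mir29a was 4.64 times Mir29c (4.35 to 4.96) in replicate 2 and 3.69 times (3.40 to 4.01) in replicate 1. These are ratios of read counts of different microRNAs, whose capture was not analysed, and the Mir29b counts leave out reads that fit both genes. No test of these ratios was made, and intervals that overlap do not show that the ratios were the same in both libraries.

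The 4 genes were all higher in replicate 2, and 3 of them passed the test of the difference between the libraries. Each gene with at least 10 counts over both libraries was put to an exact binomial test, two-sided, of its split between the libraries against the split of their totals, with Benjamini-Hochberg adjustment over all 540 such genes. A gene was called at an adjusted p below 0.05 and a log2 ratio of 1 or more in size, where the log2 ratio is replicate 2 over replicate 1 with 0.5 counts added. The test compares the reads of 2 libraries of 1 group, not conditions, and its p-values cover counting error only, with reads taken as independent molecules, so they do not measure the spread between animals. All 4 members were tested. A log2 ratio above 0 was found in 309 of the 540 tested genes, or 57.2%. Of all tested genes, 62 were called higher in replicate 2, or 11.5%, and 39 were called lower, or 7.22%, and together these were 101, or 18.7%.

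Mir29b-1 had a log2 ratio of 1.69 (95% interval 1.24 to 2.18), a 3.23-fold difference with an adjusted p of 3.1e-14 by the exact binomial test. Mir29a had a log2 ratio of 1.40 (1.33 to 1.46), 2.63-fold, and its p was too small for the computation to represent. Mir29c had a log2 ratio of 1.06 (0.93 to 1.20), 2.09-fold, with an adjusted p of 1.6e-53 by the same exact test. Its call ended when TMM library sizes (0.98), DESeq2 size factors (0.90) or all reads (0.89) set the scale, since the ratio then lay under 1. Mir29b-2 had a log2 ratio of 0.49 (0.089 to 0.89), 1.40-fold, and was not called, with an adjusted p of 0.028 by the exact test but a ratio under 1. The median log2 ratio of the family was 1.23, beside 0.17 over all tested genes, and that general median was 0.0051 with DESeq2 size factors. Of the called genes, 61.4% were higher in replicate 2 by library totals and 45.5% by DESeq2 size factors.

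Ratios of this size were not rare between these libraries. A log2 ratio at least as high as that of Mir29b-1 was found in 31 of the 540 tested genes, or 5.74%. For Mir29a the number was 44, or 8.15%, for Mir29c 71, or 13.1%, and for Mir29b-2 181, or 33.5%. By edgeR's common dispersion, the biological coefficient of variation was 38.6% (427 genes). The coefficients of variation of the members over the 2 libraries were 74.8% for Mir29b-1, 63.5% for Mir29a, 49.9% for Mir29c and 23.8% for Mir29b-2.

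**Figure D4:**
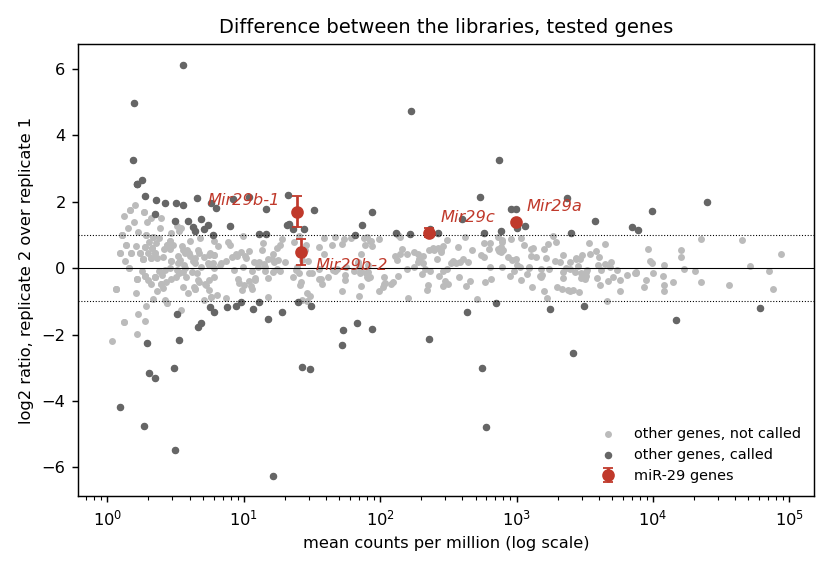
Log2 ratio of replicate 2 over replicate 1 (y axis) against mean CPM (x axis, log scale) for the 540 tested genes, with the miR-29 genes in red, exact 95% intervals as bars and dotted lines at a log2 ratio of 1 and -1. Mir29a, Mir29b-1 and Mir29c lie above the upper line and Mir29b-2 lies under it, and other called genes lie on both sides.

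The partners of each pair differed less in their ratios than the median pair of neighbouring genes, by more on chromosome 6 than on chromosome 1. The log2 ratio of Mir29a minus that of Mir29b-1 was -0.30, and that of Mir29c minus that of Mir29b-2 was 0.58. Over 102 pairs of tested neighbours within 10000 bases on a strand, the median absolute difference was 0.69, and over all pairs of tested genes it was 0.82. Of the neighbour pairs, which include those of miR-29, 20.6% differed by no more than the chromosome 6 pair. For the chromosome 1 pair that share was 45.1%, so it lay near the middle. The 2 genes that encode the same miR-29b-3p differed most within the family, with 1.20 for Mir29b-1 minus Mir29b-2. These differences are descriptions, with no test.

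All 4 hairpins were poor in G and C, at 38.6% for Mir29a, 35.2% for Mir29b-1, 39.5% for Mir29b-2 and 44.3% for Mir29c, against a median of 53.1% over the 540 tested genes. All 4 were among the 135 tested genes of lowest GC content, at most 45.7%. Those 135 genes had a median log2 ratio of 0.047, beside 0.17 over all tested genes. Of them 21 were called higher, beside 12 to 15 in each of the other 3 GC classes of 131 to 139 genes. Over all 540 tested genes 62 were called higher, or 11.5%. The 21 include Mir29a, Mir29b-1 and Mir29c themselves, so that count is not separate from the family's own difference. Over the 540 genes of these libraries, Pearson's r between GC content and log2 ratio was -0.092 and Spearman's rho was -0.047, and genes are not independent replicates.

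Markers of other cell types also moved between the libraries, and their part in the miR-29 difference was not tested. The counts of called markers stand beside 11.5% called higher and 7.22% called lower over all tested genes, and most lists have too few members to compare with those shares. The 7 choroid plexus and ciliated cell genes made up 0.533% of all counts of replicate 2 and 0.258% of those of replicate 1, and 3 of 6 tested members were called higher. These were Mir204, Mir34b and Mir211, and Mir211 had only 10 counts in replicate 2 and 2 in replicate 1. Mir449a, Mir34c and Mir449c, with log2 ratios of 0.80, 0.92 and 1.11, were not called. The 3 red blood cell genes took 0.00764% in replicate 2 and 0.123% in replicate 1, and 2 were called lower. Mir126a, the endothelial marker, took 0.930% in replicate 2 and 1.49% in replicate 1 and was not called. The 2 genes of mural and smooth muscle cells took 0.439% in replicate 2 and 0.396% in replicate 1, and 1 was called higher. The 6 genes of proliferating progenitors took 0.593% in replicate 2 and 0.715% in replicate 1, and 0 of 4 tested were called. Of 7 genes of liver and striated muscle, Mir206 had 114 counts in replicate 2 and 493 in replicate 1 and was called lower, and Mir122 had 110 counts in replicate 2 and 190 in replicate 1 and was not called. The other 5 had 0 counts in both libraries, 4 of them (Mir1a-1, Mir1a-2, Mir133a-1 and Mir133a-2) genes with a second copy, whose shared reads would not be counted. The 5 astrocyte genes, chosen without miR-29, took 1.03% in replicate 2 and 0.987% in replicate 1, and Mir21a alone of them was called, at 1541 CPM (replicate 2) and 450.0 CPM (replicate 1). Mir143 is on this list and on that of mural and smooth muscle cells, so these lists are not separate. It had 14229 counts in replicate 2 and 18404 in replicate 1. The 3 oligodendrocyte genes took 0.174% in replicate 2 and 0.104% in replicate 1, and 0 of them were called. The 4 genes found, of 5 listed for microglia and other myeloid cells, took 0.0906% in replicate 2 and 0.0495% in replicate 1. Mir150 held most of these counts, with 2712 in replicate 2 and 1793 in replicate 1. The share of the list thus mainly follows Mir150, whose cells of origin were not examined, and does not give the level of myeloid cells. Mir150 and Mir223 were called higher, and Mir142 and Mir155, with log2 ratios of -0.33 and 0.10, were not called. The listed Mir146a was not matched by that symbol. Mir146, possibly the same gene under another symbol, was left outside the list. It had 3114 counts in replicate 2 and 3083 in replicate 1 and was not called. In bulk tissue, fewer cells of a type and less RNA per cell cannot be told apart.

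**Figure D5:**
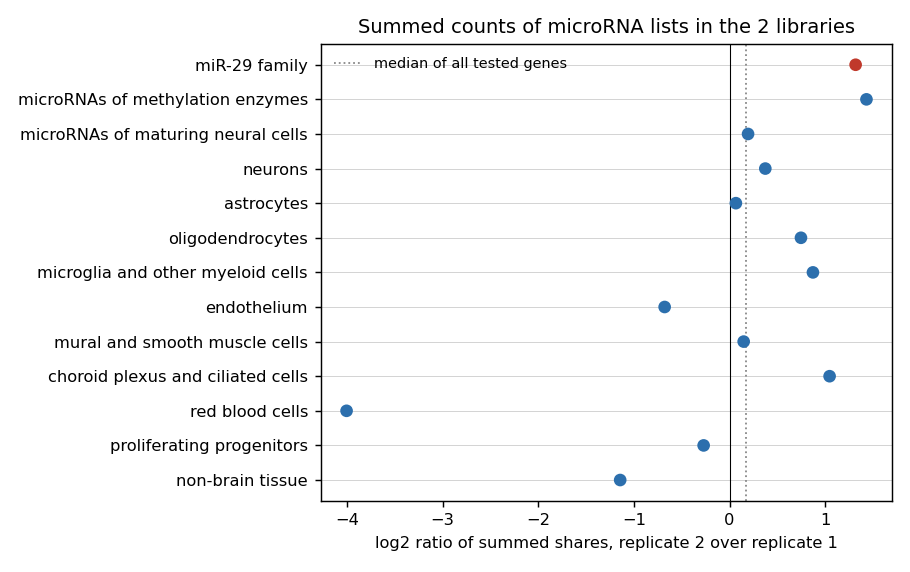
Log2 ratio of the summed share of counts, replicate 2 over replicate 1 (x axis), for the miR-29 family (red) and for each list of other microRNAs (blue), with the median of all tested genes as a dotted line. The list of microRNAs of methylation enzymes lies at 1.43, above the miR-29 family at 1.32. The choroid plexus and ciliated cell list lies at 1.05 and the red blood cell list at -4.01.

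The microRNAs of methylation enzymes are others known to target enzymes that write or erase methyl marks on DNA or histones, such as miR-148 and miR-152 for Dnmt1, miR-101 for Ezh2 and miR-22 for Tet2. Of the 10 genes listed, 9 were tested, 3 were called higher in replicate 2 and 0 lower, and their median log2 ratio was 0.83, beside 11.5% called higher, 7.22% called lower and a median of 0.17 over all 540 tested genes. The higher genes were Mir22, Mir101a and Mir26a-2. Mir22, with a log2 ratio of 1.72, had 15061 CPM in replicate 2 against 4577 in replicate 1 and held most of the list's counts. Mir101a, with a log2 ratio of 1.31, had 104 CPM in replicate 2 against 41.9 in replicate 1. Mir26a-2, with a log2 ratio of 4.73, had 1126 counts in replicate 2 and 58 in replicate 1. Reads that fit both it and Mir26a-1, a second miR-26a gene, would not be counted, so its value is uncertain. The hairpins of these genes were not compared.

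The other tested genes of that list, Mir148a, Mir148b, Mir152, Mir101b, Mir26a-1 and Mir26b, had log2 ratios of -0.26, 0.83, 0.88, 0.61, 0.17 and 0.75 and were not called. Mir101c had 0 counts in both libraries, where 3 counts would be 0.858 CPM in replicate 2 and 0.623 CPM in replicate 1. That limit holds for uniquely assigned reads alone. Any Mir101c reads that fitted several places would not be counted, so the 0 sets no ceiling on its level. Of 18 genes known to rise as neurons or glia mature, 16 were tested, 1 was called higher and 0 lower, with a median log2 ratio of 0.15, and neither the count nor the median stands above the 11.5% and 0.17 of all tested genes. The gene called was Mir132, which is induced by neuronal activity, at 9936 CPM in replicate 2 against 4187 in replicate 1. Its Mir124a, Mir128, Mir132 and Mir138 genes are also neuronal markers, and the list holds all the oligodendrocyte genes. The results of these lists are therefore not separate.

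Genes whose levels lay nearest to those of a member were found by the Euclidean distance of log2(CPM + 1) over the 2 libraries, and 2 libraries are few for such a measure. For Mir29a these were Mir27b, Mir21a, Mir195a, Mir15b and Mir204, at distances of 0.16 to 0.42. Mir27b, the nearest, stood at 1407 CPM in replicate 2 against 608 in replicate 1. In the order of mean CPM, Mir29a lay between Mir21a at 996 ± 772 and Mir672 at 985 ± 136 CPM (SD, n = 2 for both), which differed from it by less than the spread.

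For Mir29c the nearest were Mir145a, Mir3475 and Mir6540, and Mir145a stood at 319 CPM in replicate 2 against 141 in replicate 1. For Mir29b-1 they were Mir764, Mir7047 and Mir193a, and for Mir29b-2 they were Mir24-2, Mir3070b and Mir3078. The neighbours of Mir29c in mean CPM, Mir145a and Mir6540, differed from it by less than its SD. The same held for the neighbours of Mir29b-1, which were Mir1930 and Mir1969, and for those of Mir29b-2, which were Mir3070b and Gm23935.

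The shared 3p seed pairs with TGGTGCT in a transcript, and this site was searched for on the sense strand of the longest annotated 3′ UTR of each coding gene in GENCODE M21. Target transcripts were not measured in these libraries, so the sites describe sequence alone, and the target genes were chosen after the microRNA values were seen and because they are known as miR-29 targets. That most of them hold the site was therefore largely fixed by the choice, and their counts are no evidence of enrichment over other UTRs. The site was present in 13.1% of 21037 UTRs, which had a median length of 960 bases. Of 6 genes for DNA methylation and demethylation enzymes, 6 held it, with 5 sites in Dnmt3a, 1 in Dnmt3b, 7 in Tet1, 5 in Tet2, 8 in Tet3 and 3 in Tdg. Their UTRs had a median length of 4363 bases, and a longer UTR holds any such word more often.

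All of 6 cell death regulators held the site, among them the BH3-only genes Bcl2l11, Bmf, Bbc3 and Hrk, with UTRs of a median length of 3077 bases. Of 8 matrix genes, 7 held it, with 1 site in Col1a1 and 3 in Eln, which codes for elastin, and none in Col1a2, in UTRs of a median length of 1090 bases. The sites below, 1 for each of 4 genes from these 3 groups, are followed by an A opposite the first base of miR-29, and capitals mark the match to the seed.
Dnmt3a, base 3658 of the UTR: aggggaggtagcTGGTGCTagcac
Tet2, base 557 of the UTR: gttaacattaaaTGGTGCTacaaa
Bmf, base 1195 of the UTR: aaggaaagacatTGGTGCTataat
Col1a1, base 919 of the UTR: ggaaggaatttcTGGTGCTataga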

How the data were processed

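Raw counts of reads on each microRNA gene were deposited by the authors, 1 file for each of 2 libraries, on mm10 with GENCODE M21 annotation, per the readme deposited with them. Aligner and counter: not given in the sources used here. Of the 2 stranded columns, the one with more counts was taken as sense, and lines of totals (unmapped, fitting several places, outside genes) were left out of library sizes. All 2202 identifiers matched GENCODE M21, and sequences came from RefSeq (GRCm38.p6) and GENCODE. A search of the whole genome for the mature sequences could not be made, and annotated hairpins were searched instead.

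The members and lists were chosen with earlier results of these data known. Named genes were the members, the 3 genes nearest each (5 for Mir29a), neighbours in mean CPM, the methylation list and leading markers. Other genes were named after their values were seen. One listed marker, Mir146a, was not matched by symbol, and a gene named Mir146 was left outside the list.

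Intervals were exact Clopper-Pearson at 95%. With 1 library on each side, the quasi-likelihood test of edgeR has no residual degrees of freedom, so the exact binomial test was used. Python 3.11.15, SciPy 1.17.1, pandas 2.3.3, R 4.3.3, edgeR 4.0.16 and DESeq2 1.42.0 were used.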

Additional observations from a re-analysis of the deposited data

How the results depend on the processing

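The ratios were recomputed with other scalings, count columns, count minimums and added counts. The log2 ratio of Mir29a stayed between 1.23 and 1.40 and that of Mir29b-1 between 1.52 and 1.70, and both were called in each of these settings. Mir29c was not called with TMM library sizes (0.98), DESeq2 size factors (0.90) or all reads as library size (0.89). Mir29b-2 was called when no minimum ratio was set (0.49). The adjusted p of Mir29b-2 by the exact binomial test ranged up to 0.17 with the scaling. Genes higher in replicate 2 numbered 39 with a minimum of 50 counts, where fewer genes were tested, and 175 with no minimum ratio, against 62. Genes lower there numbered 126 with no minimum ratio, against 39. Of the called genes 52.1% were higher in replicate 2 with TMM sizes and 44.4% with all reads, against 61.4%.

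Levels fall when the denominator grows. Per 1000000 of all reads, Mir29a averaged 355, Mir29c 82.5 and Mir29b-2 9.63, and the family's share was 0.0456%. Per 1000000 counted and multimapped reads, Mir29c averaged 109.8 and Mir29b-2 12.8. Leaving out a replicate gives the other library's value, from 547 to 1439.6 CPM for Mir29a and from 0.0729% to 0.182% for the family. No paired analysis was possible because there is 1 group. The number of libraries, 2, limits every result. For both Mir29b genes, with 56 to 132 counts, depth and the reads of the shared 3p arm limit the values further.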
